A study of Mus musculus with 16 samples.

Results

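Immediate early genes are transcribed within minutes of a stimulus. The 10 described here are 6 genes of the AP-1 group (Fos, Fosb, Jun, Junb, Jund and Atf3) and Egr1, Ier2, Nr4a1 and Myc, and they were taken by symbol from the 15895 genes listed for sorted cardiac lymphatic endothelial cells of CD1 mice. All 10 were in the table, each as 1 row. The 4 groups were MI P56 (myocardial infarction by ligation of the left descending coronary artery of adult males at postnatal day 56), sham P56 (the same operation without the ligation), MI P1 (infarction at postnatal day 1) and sham P1 (its sham operation), with hearts taken 3 days after surgery and 4 libraries in each group. The cells were sorted as CD45-, CD31+ and podoplanin+.

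AP-1 is a dimer of basic leucine zipper proteins, in which a Fos protein pairs with a Jun protein or Jun proteins pair with each other. Signals of growth factors, cytokines, flow and stress reach these genes through MAP kinases and act on factors already bound at their promoters, so no new protein is needed for their first transcription. The proteins and messages are short-lived, and phosphatases of the DUSP family and RNA decay factors such as Zfp36 end the response. In endothelium, Egr1 and the AP-1 genes are known to answer to flow, injury and VEGF. Enzymatic digestion of a tissue is also known to induce them in the cells it releases.

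Ages differed in more than age. Neonatal ventricles were pooled by 6, cut up and digested with agitation for 30 to 40 min, whereas hearts of adult males were digested by perfusion for about 8 min and cut up afterwards, both with Liberase, per the labels' protocols. Age, digestion, pooling and sex therefore cannot be told apart in any comparison of P56 with P1. The labels do not say how the animals or pools of a group's libraries relate, so p-values measure the spread between these libraries, which may be technical. Values are in the deposited unit, CPM (reads of a gene relative to a fixed total), which had the form that edgeR gives with TMM factors (a trimmed mean that sets libraries on 1 scale). In 13 libraries 14121 to 15821 genes had a read, and 3 reads corresponded to a value of 0.0489 to 0.109. The other 3 (MI P56 library 5 and sham P1 libraries 1 and 2) had a read on only 7746 to 9451 genes and stood apart, with 3 reads worth 12.9, 0.359 and 12.1. They were left out, so results below come from MI P56 libraries 1, 2 and 3, sham P56 and MI P1 libraries 1, 2, 3 and 5, and sham P1 libraries 3 and 5, with values in that order, and counts of calls among the 10 genes and the gene lists are also given with all 16. Sham P1 library 5 had 47.3% of its reads on Uqcrc1, a gene of the respiratory chain, against 0.0930% to 4.11% in the other 12 fitted. A fitted library had 28 to 45913 reads on a single one of the 10 genes. Lymphatic markers (8 of 9 listed, among them Prox1, Lyve1 and Flt4) summed to 1056 to 2474 in MI P56, 1837 to 3240.4 in sham P56, 1640.5 to 2639 in MI P1 and 2116 to 3057 in sham P1.

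The comparison of P56 with P1 asks how these genes stand in adult and in neonatal lymphatic endothelium. Between sham hearts, 8 of the 10 genes were lower at P56 (Fos, Fosb, Jun, Junb, Atf3, Egr1, Nr4a1 and Myc) and Jund and Ier2 were not called. Calls rest on limma fits to log2(value + 1) of 13033 genes, taken where the Benjamini-Hochberg adjusted p was under 0.05, and 7.28% of all genes were called lower and 5.89% higher. After MI, 8 of the 10 were lower at P56 (Fos, Fosb, Jun, Junb, Jund, Atf3, Egr1 and Myc), against 3.26% of all genes lower and 2.09% higher. The median log2 change of the 10 was -2.93 between shams and -1.81 after MI, where the medians of all genes were 0.0016 and 0.0065. In these bulk samples, fewer cells that make a transcript and less of it per cell cannot be told apart. Every adult library lay below every neonatal one for 9 of the 10 genes between shams, where 16.7% of all genes did so, and for 10 of 10 after MI, where 11.2% did.

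**Figure D1:**
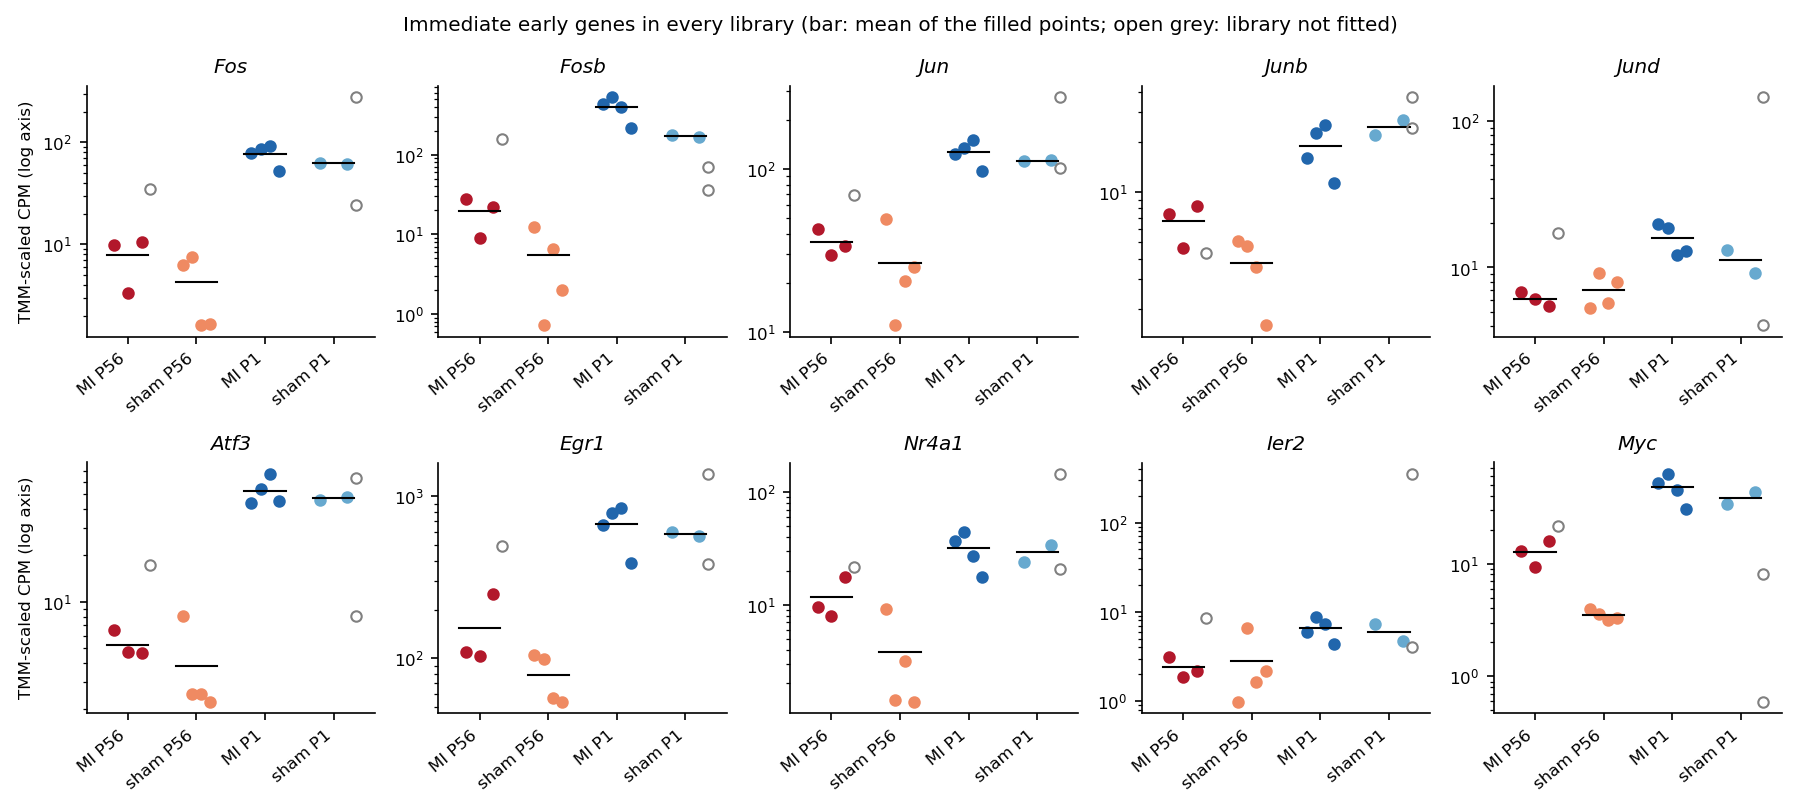
Values of the 10 genes (TMM-scaled CPM, log axes that differ between panels) in each library of the 4 groups, with filled points for the 13 fitted libraries, a bar at their mean and open grey points for the 3 libraries left out. The filled points of both P56 groups lie below those of both P1 groups for Fos, Fosb, Jun, Junb, Atf3, Egr1, Nr4a1 and Myc. For Jund they do so narrowly (9.21 in sham P56 library 2, 9.24 in sham P1 library 5), and for Ier2 they overlap.

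Of the Fos family, Fosb differed most. Fosb (chromosome 7, 19302696 to 19310051), which pairs with Jun proteins as Fos does and is also made as a shorter form that lacks the activating end, was at 27.7, 8.90 and 21.8 in MI P56, 12.5, 0.724, 6.62 and 2.01 in sham P56, 435, 523, 394 and 213 in MI P1 and 176 and 166 in sham P1. The lowest neonatal library was thus far above the highest adult one. Its mean was 31.3-fold lower in sham P56 than in sham P1, with a log2 change of -5.16 ± 0.58 (SE; limma adjusted p = 1.3e-05), and 20.1-fold lower in MI P56 than in MI P1 (-4.32 ± 0.51, adjusted p = 5.5e-05). Fos (chromosome 12, 85473890 to 85477273), the subunit that forms AP-1 with Jun, was at 9.95, 3.34 and 10.5 in MI P56, 6.23, 7.48, 1.61 and 1.63 in sham P56, 79.5, 86.2, 91.7 and 51.9 in MI P1 and 63.2 and 61.9 in sham P1. The adult groups overlapped each other, as the neonatal groups did, and the ages did not overlap. The log2 change of Fos was -3.81 ± 0.46 between shams (adjusted p = 2.7e-05) and -3.23 ± 0.41 after MI (adjusted p = 9.8e-05).

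The Jun genes differed by less, and unequally. Jun (chromosome 4, 95049034 to 95052222), the main partner of Fos, was at 42.7, 29.8 and 33.5 in MI P56, 49.1, 10.97, 20.5 and 25.04 in sham P56, 124, 135, 151 and 97.2 in MI P1 and 112 and 113 in sham P1. All adult libraries lay below all neonatal ones, with log2 changes of -2.24 ± 0.37 between shams (adjusted p = 4.4e-04) and -1.81 ± 0.33 after MI (adjusted p = 0.0024). Junb (chromosome 8, 84974484 to 84978718), a weaker activator that can hold Jun in check, was at 7.37, 4.64 and 8.29 in MI P56, 5.11, 4.73, 3.55 and 1.60 in sham P56, 15.9, 22.7, 25.3 and 11.3 in MI P1 and 21.9 and 26.99 in sham P1. It fell by 2.49 ± 0.38 between shams on the log2 scale (adjusted p = 2.3e-04) and by 1.32 ± 0.34 after MI (adjusted p = 0.0261). The call of Junb after MI ended without any 1 of MI P56 1, MI P56 2, MI P1 1, MI P1 2 or MI P1 3 (adjusted p of 0.0515 to 0.16). Jund (chromosome 8, 70698949 to 70700616), the Jun gene that resting cells express steadily, was at 6.80, 6.10 and 5.49 in MI P56, 5.27, 9.21, 5.68 and 8.00 in sham P56, 19.7, 18.5, 12.2 and 13.004 in MI P1 and 13.2 and 9.24 in sham P1. Between shams its libraries came within a narrow margin of each other and the change was -0.61 ± 0.32 (95% interval -1.27 to 0.05, adjusted p = 0.224). After MI it was -1.22 ± 0.28 (adjusted p = 0.0134), a call that ended without any 1 of MI P56 2, MI P56 3 or MI P1 1 (adjusted p of 0.0535 to 0.0561).

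Genes on the other strand overlap all 3 Jun genes and Atf3, and whether reads were counted by strand is not given in the sources used here. Junos, which overlaps Jun by 689 bases, was at 0.129 to 2.08 over the fitted libraries, and Prdx2, which overlaps Junb by 351 bases, at 1.16 to 8.55. Prdx2 was itself at 2.48 to 4.80 in MI P56 and 1.16 to 4.20 in sham P56, against 4.93 to 5.90 in MI P1 and 7.66 to 8.55 in sham P1. Reads of these pairs cannot be told apart where they overlap.

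Atf3 (chromosome 1, 191170296 to 191218039), a stress-induced subunit that represses as a homodimer and can pair with Jun, was at 6.50, 4.68 and 4.61 in MI P56, 8.07, 2.54, 2.51 and 2.25 in sham P56, 43.8, 53.9, 67.3 and 44.98 in MI P1 and 45.8 and 47.96 in sham P1. Sham P56 library 1 was the highest adult library, and no adult library came near the neonatal ones. The change was -3.45 ± 0.36 between shams (adjusted p = 7.1e-06) and -3.09 ± 0.32 after MI (adjusted p = 1.2e-05).

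Outside AP-1, Egr1 had the highest level per length of the 10 in each group. Egr1 (chromosome 18, 34859823 to 34864984), a zinc finger factor that answers to growth factors and flow, was at 109, 103 and 249 in MI P56, 105, 99.5, 57.1 and 53.9 in sham P56, 669, 788, 846 and 390.1 in MI P1 and 607 and 573 in sham P1. MI P56 library 3 was the highest adult library and still below MI P1 library 5, the lowest neonatal one. Its mean was 7.48-fold lower in sham P56 than in sham P1 (log2 change -2.95 ± 0.37, adjusted p = 3.2e-05) and 4.39-fold lower in MI P56 than in MI P1 (-2.19 ± 0.33, adjusted p = 4.1e-04). Nr4a1 (chromosome 15, 101266846 to 101274792), an orphan nuclear receptor induced by VEGF in endothelium, was at 9.62, 7.91 and 17.6 in MI P56, 9.26, 1.42, 3.17 and 1.38 in sham P56, 37.1, 44.7, 27.04 and 17.8 in MI P1 and 24.1 and 34.2 in sham P1. It fell between shams (-2.91 ± 0.49, adjusted p = 5.4e-04). After MI its change was -1.36 ± 0.43 and was not called (adjusted p = 0.0777), although MI P56 and MI P1 did not overlap, and MI P56 library 3 came close to MI P1 library 5. Ier2 (chromosome 8, 84661331 to 84662852), a small nuclear protein, was at 3.10, 1.88 and 2.20 in MI P56, 0.986, 6.57, 1.63 and 2.18 in sham P56, 5.94, 8.67, 7.30 and 4.38 in MI P1 and 7.24 and 4.71 in sham P1. Sham P56 library 2 reached the level of the neonatal libraries, and Ier2 was called neither between shams (-1.03 ± 0.46, 95% interval -1.99 to -0.08, adjusted p = 0.152) nor after MI (-1.14 ± 0.40, adjusted p = 0.115).

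Myc (chromosome 15, 61985391 to 61990374), the transcription factor that pairs with Max and drives ribosome and cell cycle genes, had the smallest p of the 10 between shams. It was at 12.8, 9.38 and 15.7 in MI P56, 3.99, 3.54, 3.17 and 3.28 in sham P56, 51.6, 62.3, 44.7 and 30.7 in MI P1 and 33.6 and 42.8 in sham P1. The 4 groups formed 3 levels, with sham P56 lowest and tight, MI P56 between and both P1 groups on top without separating from each other. The change was -3.12 ± 0.30 between shams (adjusted p = 2.5e-06) and -1.81 ± 0.26 after MI (adjusted p = 3.3e-04).

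**Figure D2:**
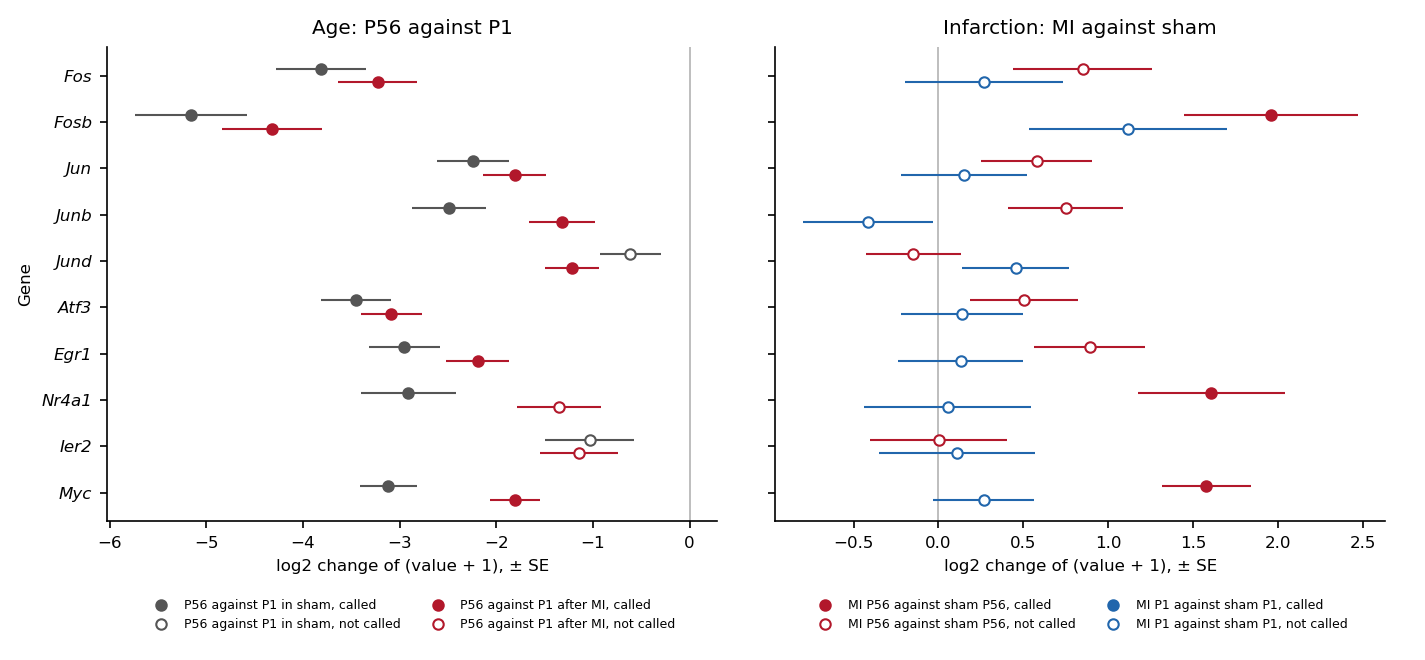
Log2 changes (± SE, limma on log2(value + 1), 13 libraries) of the 10 genes for P56 against P1 (left) and MI against sham (right), with filled points for called genes and open points for genes not called. Points on the left lie between -5.16 and -0.61, and on the right only Fosb, Nr4a1 and Myc at P56 are filled.

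With all 16 libraries 7 of the 10 genes were called lower between shams, where 1.39% of all genes were lower and 2.52% higher, and Myc was not (log2 change -1.44, limma adjusted p = 0.217). Over all genes the median was then 0.36 between shams and -0.18 after MI, and that of the 10 genes -2.80 and -1.60. After MI only Fosb was still called among all 16 libraries (log2 change -3.55, limma adjusted p = 0.0413), against 0.0529% of all genes lower and as many higher. With MI P56 library 5 added alone to the 13 libraries the count after MI was 7, with sham P1 library 1 alone it was 4 and with sham P1 library 2 alone 6, alternatives chosen after the data were seen. Calls over all genes fell too, from 425 of 13033 lower with the 13 libraries to 276 of 13110, 60 of 13075 and 112 of 13126 in these 3 fits. Markers of other cells differed with age as well. Over the fitted libraries, 9 of 10 listed cardiomyocyte markers were in the table and summed to 1269 to 2306 in sham P56 and 147 to 224 in sham P1, and 8 of 9 pericyte and smooth muscle markers to 449 to 1153 and 103 to 214. The 8 proliferation genes summed to 25.5 to 74.1 in sham P56 and 517 to 594 in sham P1. The 10 fibroblast markers summed to 838 to 3973 in sham P56 and 3092 to 6422 in sham P1, with 4 called lower and 1 higher. The 10 blood endothelial markers summed to 593 to 806 in sham P56 and 334 to 348 in sham P1. Macrophage and monocyte markers (10 of 12 listed in the table) summed to 7.72 to 10.6 in sham P56 and 19.1 to 19.3 in sham P1. Of the 7 tested, 1 was called lower and 0 higher. Their sums after MI were 18.6 to 97.6 in MI P56 and 11.5 to 35.2 in MI P1. After MI the cardiomyocyte sums were 320.4 to 566 in MI P56 and 100.0 to 342 in MI P1, the proliferation sums 159 to 387 and 426 to 526, and the fibroblast sums 3735 to 7993 and 1821 to 5402. No marker of these lists was at 0 throughout a group. Their part in the result was not tested.

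The AP-1 genes did not keep the same proportions, which is a comparison within each library and so does not depend on how libraries were scaled to each other. As shares of the summed value per kilobase of exon of the 6 AP-1 genes (exon lengths of the GENCODE M21 annotation), Fos and Fosb together made up 14.2% to 28.9% in MI P56 libraries and 6.60% to 21.3% in sham P56, against 46.8% to 57.7% in MI P1 and 41.3% to 42.7% in sham P1. The 3 Jun genes made up 63.3% to 74.9% in MI P56 and 71.1% to 86.6% in sham P56, against 30.3% to 35.9% in MI P1 and 40.8% to 41.3% in sham P1. Neither share overlapped between the ages over the 13 libraries. Among those left out, the share of Fos and Fosb was 48.6% for library 5 of MI P56, 37.1% for library 1 of sham P1 and 25% for its library 2, so with all 16 libraries the ages overlapped. Over the 13, Jun was the leading AP-1 transcript per length in 6 of 7 adult libraries. In sham P56 library 2 that place went to Jund. In MI P1 the leading AP-1 transcript per length was Fosb and in sham P1 it was Jun, in each library. Each length was the union of a gene's annotated exons, 6243 bases in 2 blocks for Fosb and 3189 for Jun. A shorter length for Fosb would raise its value per kilobase. The size of the shares and the order of the genes, Fosb against Jun included, thus depend on these lengths. As group means per kilobase, Egr1 stood first in each of the 4 groups, at 34.2 ± 18.4 (SD, n = 3) in MI P56, 17.6 ± 6.05 (n = 4) in sham P56, 150.1 ± 45.2 (n = 4) in MI P1 and 132 ± 5.37 (n = 2) in sham P1. Jun came second in MI P56 (11.1 ± 2.08), sham P56 (8.27 ± 5.09) and sham P1 (35.4 ± 0.258), and Fosb in MI P1 (62.7 ± 20.9). Neighbours in the order counted as apart where mean ± SD of the one lay clear of the other. By this measure only Egr1 and Jun stood apart from the gene after them in MI P56 and, along with Fos and Atf3, in sham P1. In MI P1 Egr1 stood apart from Fosb, and Myc (17.4 ± 4.87) from Jund (9.51 ± 2.29), while Fosb was not clear of Jun (39.8 ± 7.10). In sham P56 no neighbours were apart, from Egr1 and Jun through Jund (4.22 ± 1.13) down to Fosb (0.874 ± 0.851).

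**Figure D3:**
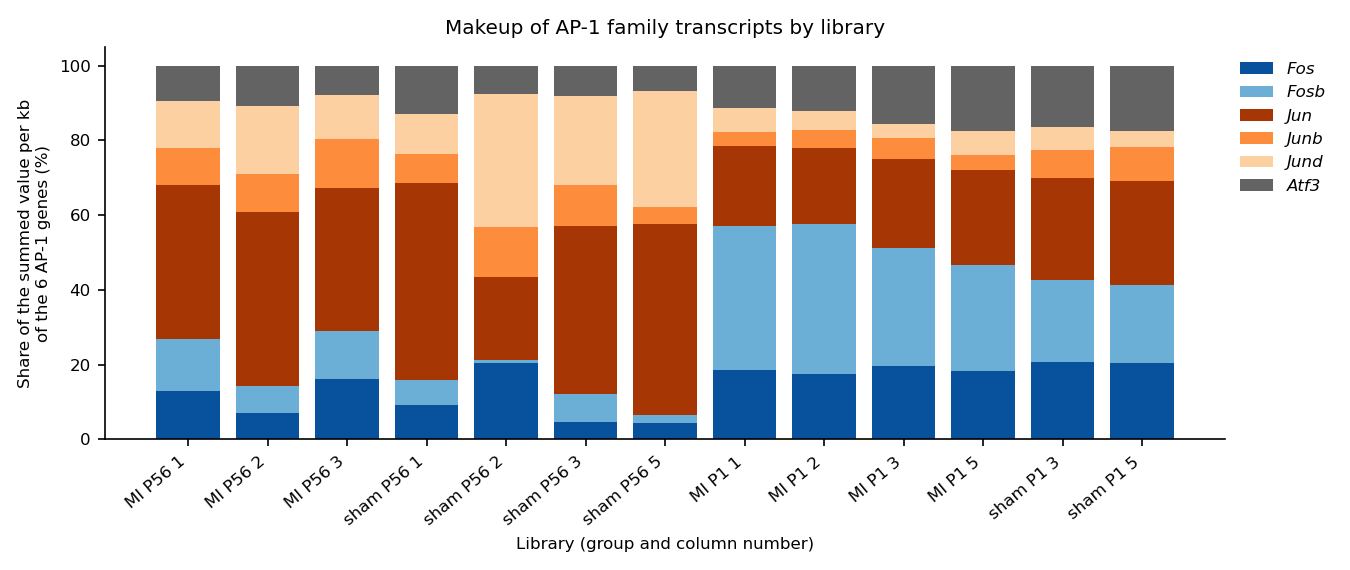
Shares (%) of Fos, Fosb, Jun, Junb, Jund and Atf3 in their summed value per kilobase of exon, 1 stacked bar per fitted library, ordered by group. The blue segments (Fos and Fosb) reach at most 28.9% in the 7 P56 libraries and at least 41.3% in the 6 P1 libraries.

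The 150 bases before the start sites were read because most of these genes differed together, in RefSeq windows (GRCm38.p6) that matched 7 of the 10 by symbol. The letters TGACG, or on the other strand CGTCA, the half-site of the cAMP response element that CREB and ATF proteins read, stood in 5 of these 7 windows, those of Fos, Fosb, Junb, Atf3 and Nr4a1, and in 13.3% of the 32851 windows of this length. Those of Fos are 129 and 66 bases before the start, those of Nr4a1 69 and 40, that of Fosb 60, that of Junb 106 and that of Atf3 7. The full element TGACGTCA, the AP-1 site TGACTCA or TGAGTCA and the CArG box of serum response factor were in none of the 7 windows (1.36%, 2.84% and 0.916% of all windows), and TATAAA or TTTATA only in that of Fos (7.57% of all). The windows follow 5′ to 3′ on the strand of the gene with the half-site in capitals, and that of Jun, which holds none, is shown for comparison.
Fos (chr12:85473740-85473889, + strand): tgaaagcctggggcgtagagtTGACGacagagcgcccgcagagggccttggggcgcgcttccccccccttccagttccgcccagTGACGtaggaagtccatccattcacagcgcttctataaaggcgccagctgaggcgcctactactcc
Fosb (chr7:19310046-19310195, - strand): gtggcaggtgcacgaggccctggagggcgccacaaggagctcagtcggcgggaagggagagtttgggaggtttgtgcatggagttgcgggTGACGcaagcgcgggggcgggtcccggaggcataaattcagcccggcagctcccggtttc
Junb (chr8:84978749-84978898, - strand): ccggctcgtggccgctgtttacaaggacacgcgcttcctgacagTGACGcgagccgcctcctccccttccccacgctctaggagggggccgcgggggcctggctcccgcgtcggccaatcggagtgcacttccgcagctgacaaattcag
Atf3 (chr1:191183334-191183483, - strand): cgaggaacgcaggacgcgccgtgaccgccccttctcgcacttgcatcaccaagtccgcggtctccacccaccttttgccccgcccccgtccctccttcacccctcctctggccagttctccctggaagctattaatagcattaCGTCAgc
Nr4a1 (chr15:101266696-101266845, + strand): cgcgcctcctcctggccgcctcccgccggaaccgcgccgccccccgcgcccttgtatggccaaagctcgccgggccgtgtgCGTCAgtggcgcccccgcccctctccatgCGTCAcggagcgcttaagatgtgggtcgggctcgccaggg
Jun (chr4:95052223-95052372, - strand): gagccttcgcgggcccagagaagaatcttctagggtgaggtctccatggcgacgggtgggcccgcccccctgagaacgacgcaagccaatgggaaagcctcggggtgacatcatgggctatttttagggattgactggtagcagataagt
These matches describe letters only. The search covered the stated motifs in these 150 bases, so variants of them and sites farther upstream were not counted. The window of Jun, for instance, holds tgacatca, which is TGACGTCA with A in place of G. The Atf3 start is that of a RefSeq transcript 34706 bases inside the gene as the table gives it, that of Junb lies 30 bases, that of Fosb 6 bases and that of Jund, whose window is not shown, 1210 bases from the table's gene start, and those of Fos, Jun and Nr4a1 coincide with it.

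Infarction of the adult heart was followed by higher Myc, Fosb and Nr4a1. These 3 of the 10 were called higher in MI P56 than in sham P56 and 0 were lower, where 2.36% of all genes were higher and 1.07% lower. The median log2 change of the 10 genes was 0.80 and that of all genes 0.0078. Myc averaged 12.6 ± 3.17 (SD, n = 3) in MI P56 and 3.50 ± 0.365 (SD, n = 4) in sham P56, a 3.62-fold difference of means and a log2 change of 1.58 ± 0.26 (SE; limma adjusted p = 0.00202). All MI P56 libraries of Myc lay above all its sham P56 libraries. This held for 1 of the 10 genes, close to the 8.0% of all genes that did so, with 5.79% below. Its call held without any 1 of the 13 libraries (highest adjusted p = 0.0232), and with all 16 libraries it was lost (adjusted p = 0.498).

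Fosb averaged 19.5 ± 9.61 (SD, n = 3) in MI P56 and 5.45 ± 5.31 (SD, n = 4) in sham P56 (log2 change 1.96 ± 0.51, adjusted p = 0.0396), and Nr4a1 averaged 11.7 ± 5.19 (SD, n = 3) and 3.81 ± 3.73 (SD, n = 4) in the same groups (1.61 ± 0.43, adjusted p = 0.0463). Both overlapped with sham P56 library 1, which was the highest sham P56 library for 7 of the 10 genes. These 2 calls were near the threshold. That of Fosb ended without any 1 of MI P56 1, MI P56 3, sham P56 2, sham P56 5, MI P1 1, MI P1 3, sham P1 3 or sham P1 5 (adjusted p of 0.053 to 0.184). That of Nr4a1 ended without any 1 of MI P56 1, MI P56 2, MI P56 3, sham P56 2, sham P56 3, sham P56 5, MI P1 1, MI P1 2, MI P1 3, sham P1 3 or sham P1 5 (adjusted p of 0.0525 to 0.252). edgeR's quasi-likelihood test on the recovered reads called only Myc, and with all 16 libraries 0 of the 10 were called (0.143% of all genes were higher and 0.0302% lower), as with sham P1 library 1 or 2 alone added to the 13. Over all genes, edgeR called 270 higher and 71 lower. The fit with sham P1 library 1 added called 39 and 7, and that with library 2 added 72 and 12.

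Of the 7 genes not called, Egr1 was at 0.89 ± 0.33 (95% interval 0.21 to 1.57, adjusted p = 0.149), Junb at 0.75 ± 0.34 (0.04 to 1.46, adjusted p = 0.255), Fos at 0.85 ± 0.41 (-0.01 to 1.71, adjusted p = 0.297), Jun at 0.58 ± 0.33 (adjusted p = 0.385) and Atf3 at 0.51 ± 0.32 (adjusted p = 0.44). Jund was at -0.15 ± 0.28 (-0.73 to 0.43) and Ier2 at 0.0021 ± 0.40 (-0.84 to 0.85). Within MI P56 the libraries differed among themselves. Library 2 was the lowest of the 3 for 8 of the 10 genes, all but Jund and Atf3, while library 3 was the highest for Fos, Junb, Egr1, Nr4a1 and Myc.

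Transcripts of other cells also differed after MI at P56. The macrophage and monocyte markers (10 of 12 listed in the table) summed to 18.6 to 97.6 in MI P56 and 7.72 to 10.6 in sham P56, and the 10 fibroblast markers to 3735 to 7993 and 838 to 3973. Proliferation genes summed to 159 to 387 in MI P56 and 25.5 to 74.1 in sham P56, cardiomyocyte markers to 320.4 to 566 and 1269 to 2306, and lymphatic markers to 1056 to 2474 and 1837 to 3240.4. Blood endothelial markers summed to 302 to 405 in MI P56 and 593 to 806 in sham P56, with 3 of 10 called lower, and pericyte and smooth muscle markers to 208 to 335 and 449 to 1153. No marker of these lists was at 0 in all libraries of either group. Which cells carried the Myc, Fosb and Nr4a1 transcripts was not tested.

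Infarction of the neonatal heart gave no call among the 10 genes. With limma 0 genes of the whole table were called at P1 (0.0% in either direction), while DESeq2 called 7 and edgeR 0. An unadjusted limma p under 0.05 was found for 485 of 13033 genes, a share below 0.05 itself. Fosb averaged 391 ± 130.4 (SD, n = 4) in MI P1 and 171 ± 7.38 (SD, n = 2) in sham P1, and was the gene of the 10 with the smallest p (log2 change 1.12 ± 0.58, 95% interval -0.10 to 2.34, limma unadjusted p = 0.0697, adjusted p = 1). All 4 MI P1 libraries lay above both sham P1 libraries for Fosb, 1 of the 10 genes. That is close to the 8.89% of all genes for which they did, with 7.27% below. Myc averaged 47.3 ± 13.2 (SD, n = 4) in MI P1 and 38.2 ± 6.53 (SD, n = 2) in sham P1 (0.27 ± 0.30, interval -0.35 to 0.89). For Fos the interval was -0.70 to 1.24, for Egr1 -0.64 to 0.91 and for Jun -0.63 to 0.93. Junb alone had a negative estimate (-0.42 ± 0.38, interval -1.22 to 0.39). Precision at P1 is limited by the 2 sham P1 libraries. MI P1 library 5 was the lowest of the 4 MI P1 libraries for 8 of the 10 genes, with 669, 788, 846 and 390.1 for Egr1 over libraries 1, 2, 3 and 5.

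The difference between the responses at the ages was tested directly as (MI P56 minus sham P56) minus (MI P1 minus sham P1). It called 0 of the 10 genes with limma, where 0.322% of all genes were called higher and 0.161% lower. An unadjusted p under 0.05 was found for 3 of the 10 and for 1421 of all 13033 genes tested. Myc came closest (log2 difference 1.31 ± 0.40, 95% interval 0.48 to 2.14, adjusted p = 0.162), followed by Nr4a1 (1.55 ± 0.66, adjusted p = 0.379) and Junb (1.17 ± 0.51, adjusted p = 0.399). DESeq2 on the recovered reads called Myc (1.56, adjusted p = 0.0165), along with 185 of all genes higher, Myc included, and 139 lower. edgeR did not call it (1.58, adjusted p = 0.0813). With all 16 libraries 0 of the 10 were called, against 0.00755% of all genes higher and 0 lower, and the estimate for Myc was -0.18 where the median of all genes was -0.50. That Myc was called after MI at P56 and not at P1 therefore does not show that the responses differ.

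Other genes of the same response were read from 9 lists with 157 of their 169 entries in the table and 152 tested, with values as mean ± SD over the fitted libraries of a group. Between shams, 10 of 18 other immediate early transcription factors were lower at P56 and 1 higher, where 7.28% of all genes were lower and 5.89% higher, and their median log2 change was -1.18. Nr4a2, a relative of Nr4a1, averaged 1.24 ± 1.47 in sham P56 and 45.1 ± 7.83 in sham P1 (adjusted p = 2.4e-06), and Egr2, a relative of Egr1, 0.381 ± 0.253 in sham P56 and 17.6 ± 1.99 in sham P1 (adjusted p = 1.4e-04). Immediate early genes that encode other kinds of protein were counted too, with 11 of 18 lower and 0 higher (median -1.57), among them Cyr61, a secreted matricellular protein, at 12.1 ± 6.84 in sham P56 and 64.6 ± 2.62 in sham P1. Feedback regulators were lower in 9 of 21 and higher in 0 (median -0.85). Dusp2, a MAP kinase phosphatase, averaged 1.61 ± 0.376 in sham P56 and 36.4 ± 17.7 in sham P1, Socs3, an inhibitor of cytokine signalling, 1.06 ± 0.615 in sham P56 and 31.03 ± 0.0283 in sham P1, and Zfp36, which speeds the decay of AU-rich messages, 28.6 ± 13.5 in sham P56 and 257 ± 25.5 in sham P1.

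Of the upstream kinases and factors 1 of 27 was lower and 0 higher between shams, where 7.28% of all genes were lower and 5.89% higher. The gene called was Map2k3, a kinase that activates p38, at 4.66 ± 1.04 in sham P56 and 11.8 ± 0.644 in sham P1 (adjusted p = 0.0125), and the median of the list was 0.01. Differences between lists were not tested. Other AP-1 subunits were lower in 3 of 12 and higher in 1. Fosl2 averaged 24.03 ± 6.78 in sham P56 and 75.2 ± 29.3 in sham P1 and the small Maf gene Maff 5.88 ± 1.20 in sham P56 and 25.4 ± 13.1 in sham P1, whereas Maf itself was higher at P56, at 148 ± 55.8 in sham P56 and 52.9 ± 7.37 in sham P1 (adjusted p = 0.00496). Heat shock genes, which digestion is also known to induce, were lower in 3 of 14 between shams and 4 after MI, 0 higher. Their sum was 482 to 587 in MI P56 and 329 to 479 in sham P56, against 638 to 1240.0 in MI P1 and 716 to 726 in sham P1. Any part of digestion in this was not tested and cannot be told apart from that of age. The cytosolic chaperone Hsp90aa1 averaged 9.57 ± 1.45 in sham P56 and 33.9 ± 0.0289 in sham P1 (adjusted p = 5.4e-04). After MI the counts at P56 against P1 were 9 lower and 0 higher of the other transcription factors, 8 and 1 of the other immediate early genes, 7 and 0 of the feedback regulators, 3 and 0 of the other AP-1 subunits and 3 and 0 of the upstream genes, beside 3.26% and 2.09% of all genes. The exception, higher at P56 after MI, was Ctgf, a matricellular gene of repair, at 72.3 ± 35.1 in MI P56 and 12.02 ± 2.77 in MI P1 (adjusted p = 6.3e-04). With all 16 libraries the lower counts between shams were 2 for the other transcription factors, 4 for the other immediate early genes, 7 for the feedback regulators, 1 for the other AP-1 subunits, 0 for the upstream genes and 2 for the heat shock genes, with 0 higher in each, and after MI 0 in either direction.

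**Figure D4:**
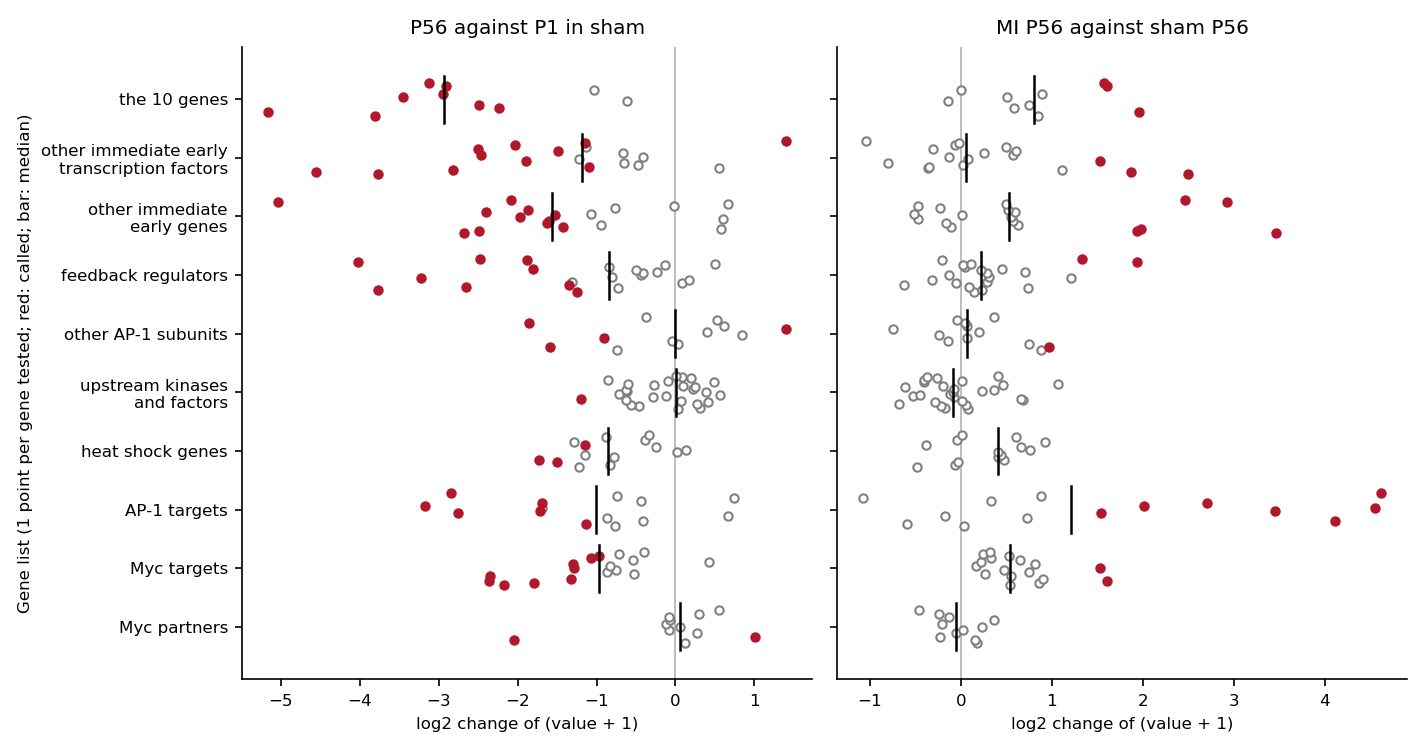
Log2 changes of the genes tested in each list for P56 against P1 in sham (left) and MI P56 against sham P56 (right), 1 point per gene, red where called, with a bar at the list median. On the left the lists of immediate early genes and feedback regulators have medians between -1.57 and -0.85 and the upstream kinases and factors a median of 0.01.

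Infarction at P56 was read over the same lists, beside 2.36% of all genes higher and 1.07% lower. Higher were 3 of 18 other transcription factors, 5 of 18 other immediate early genes, 2 of 21 feedback regulators, 1 of 12 other AP-1 subunits and 0 of 27 upstream genes, and 0 were lower in each. Egr2 averaged 9.19 ± 6.95 in MI P56 and 0.381 ± 0.253 in sham P56 (adjusted p = 0.00531), Nr4a2 6.47 ± 2.92 in MI P56 and 1.24 ± 1.47 in sham P56 (adjusted p = 0.00633) and Fosl2 47.3 ± 8.50 in MI P56 and 24.03 ± 6.78 in sham P56 (adjusted p = 0.0447). Of the feedback genes, Socs3 averaged 7.06 ± 3.30 in MI P56 and 1.06 ± 0.615 in sham P56 (adjusted p = 0.00862). With all 16 libraries 0 genes of these 5 lists were called.

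Genes known as targets of AP-1 and of Myc were read beside their regulators. Of 14 AP-1 targets tested, 7 were higher and 0 lower in MI P56 than in sham P56 (median 1.21), beside 2.36% and 1.07% of all genes, and 3 were higher with all 16 libraries. Among the 7 was Timp1, an inhibitor of matrix metalloproteinases, at 28.7 ± 7.96 in MI P56 and 0.706 ± 0.386 in sham P56 (adjusted p = 5.0e-05). Several of these 7, such as Tnc, Spp1 and Timp1, are matrix and repair genes that other cells of the infarct also make. Between shams 6 were lower at P56 and 0 higher (3 and 0 with all 16 libraries), beside 7.28% and 5.89% of all genes. After MI 1 was lower and 2 higher at P56 (0 and 0 with all 16), beside 3.26% and 2.09% of all genes. Of 17 Myc targets, 2 were higher in MI P56 than in sham P56 and 0 lower (median 0.54; 0 called with all 16 libraries). Npm1, a nucleolar chaperone of ribosome assembly, averaged 90.4 ± 2.70 in MI P56 and 29.6 ± 6.59 in sham P56 (adjusted p = 2.6e-04), and Ldha, lactate dehydrogenase, 51.7 ± 1.76 in MI P56 and 18.1 ± 5.74 in sham P56 (adjusted p = 0.00363). Between shams 9 of the 17 were lower at P56 and 0 higher (4 and 0 with all 16 libraries). Odc1, the first enzyme of polyamine synthesis, averaged 2.58 ± 1.36 in sham P56 and 14.6 ± 4.24 in sham P1 (adjusted p = 7.1e-04). Partners in the Myc network were lower in 1 of 11 and higher in 1 between shams, close to the 7.28% and 5.89% of all genes. The median of this list was 0.05. Mxd1 was lower at 6.52 ± 1.23 in sham P56 and 30.2 ± 7.79 in sham P1. Mxd4 was higher at 35.03 ± 6.15 in sham P56 and 17.00 ± 4.39 in sham P1, and both compete with Myc for Max. In MI P56 against sham P56, 0 of 11 partners were called. With all 16 libraries 0 of the 11 were called in either comparison.

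Across the 13 fitted libraries the 10 genes varied together. Pearson's r of log2(value + 1) was 0.505 to 0.978 over the 45 pairs (median 0.910), and 0.875 to 0.978 over the 28 pairs without Ier2 and Jund. With the group means taken off, the median was 0.386 and the range -0.588 to 0.846. These libraries share 4 groups, and the values are descriptions. Outside the 10, of 6056 genes with a mean of at least 5 (predicted genes and pseudogenes left out), those most like Fos over the 13 libraries were Plagl1 (r = 0.98), Slc7a1 (r = 0.97), Nrk (r = 0.96), Slc38a4 (r = 0.96) and Igf2 (r = 0.96). Igf2, a fetal growth factor, was at 29.3 to 43.7 in MI P56, 21.7 to 36.8 in sham P56, 522 to 961 in MI P1 and 993 to 1016 in sham P1. Those most like Myc were Cxcl1 (r = 0.97), Fbn2 (r = 0.97), Smarcc1 (r = 0.97), Nfkbiz (r = 0.97) and Dnmt1 (r = 0.97). Nfkbiz, a nuclear regulator of inflammatory genes, was at 32.6 to 48.1 in MI P56, 9.44 to 19.4 in sham P56, 84.9 to 125 in MI P1 and 74.4 to 101 in sham P1, the same order of 3 levels as Myc.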

How the data were processed

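RNA of 16 libraries of sorted cells was sequenced as single reads, per the labels' protocols. Trimmomatic, STAR, HTSeq and edgeR are named with the mm10 (GRCm38) genome, per the submitters' processing notes; roles and versions are not given in the sources used here. The deposited values, named CPM by the authors, are in the unit signal (scaled coverage of genes): dividing by the value of 1 read in its library left integers (100% of values within 0.01 read), the form of edgeR CPM with TMM factors. Reads so recovered numbered 17103319 to 43837520 per library. For 4 columns, those with the number 5, no title has that number; the group stands in their name.

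Libraries with a read on at least 10000 genes (13 of 16) were fitted, with genes at a value of 1 or more in at least 4 libraries. limma-trend 3.58.1 (R 4.3.3) was fitted to log2(value + 1) of the 4 groups, with Benjamini-Hochberg adjustment over all genes tested, two-sided. This scale understates changes of low values. edgeR 4.0.16 and DESeq2 1.42.0 on the recovered reads, other filters, pseudocounts, scalings and weights, the replicate block and each library left out were alternatives. Named companions were up to 4 called genes per list and comparison with the largest change and a mean of at least 1. The text names some of these, and 1 result is not reported here. The 10 genes and all lists were chosen with earlier results of these data known. The method was also run on simulated counts of independent libraries, without a shared batch or mixed cells, and its outcome is not given here. Sequences of Egr1, Ier2 and Myc are not shown. Gene coordinates are those of the table (GRCm38). Intervals and read floors cover counting or model error only.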

Additional observations from a re-analysis of the deposited data

Results flagged for a closer look

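In all 9 values stood farther from the other 3 libraries of their group than Dixon's test allows at the 95% level (a gap over 0.829 of the group's range), among 40 groups of 4 libraries, of which chance flags about 1 in 20. Of these, 8 lay in the 3 libraries with few genes detected. In MI P56 library 5, Fosb was at 155 (next 27.7), Jund at 17.3 (next 6.80) and Atf3 at 17.3 (next 6.50), on 36, 4 and 4 reads. In sham P1 library 1, Fos was at 277 (next 63.2), Jun at 276 (next 113), Jund at 145 (next 13.2) and Ier2 at 351 (next 7.24). These rested on 2314, 2306, 1214 and 2940 reads, while Myc had 5 reads there and a value of 0.598. In sham P1 library 2, Nr4a1 was at 145 (next 34.2) on 36 reads. The other value was Atf3 in sham P56 library 1, at 8.07 (next 2.54).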

How the results depend on the processing

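Of 551 repeats of the 19 calls under the alternatives, of which 3 were chosen after the data were seen, 488 kept the call, 63 lost it and 0 changed direction. The count of the 10 genes called lower at P56 between shams was 7 to 9 under every alternative (8 to 9 without 1 library). After MI it was 8, and 1 with all 16 libraries, 4 with sham P1 library 1 added to the 13, and 6 to 10 without 1 library. For MI P56 against sham P56 the count was 3, and 0 with all 16 libraries or with sham P1 library 1 or 2 added, 1 with a pseudocount of 4, with edgeR or with only the groups compared, 5 with weights per library (Egr1 and Fos too) and 1 to 3 without 1 library. It was 0 for MI P1 against sham P1 under every alternative, and 0 for the difference of responses, but 1 with DESeq2 (0 to 0 without 1 library in both). Without a sham P1 library the other stands alone and is assumed to vary like the other groups. The cause of these shifts was not tested; the 3 libraries enter the shared spread, and fewer libraries give fewer degrees of freedom. Deviations of same-numbered libraries from their group means correlated at -0.320 to 0.135 (median -0.052), with 1 of 15 pairs above 0.1. Of 13 libraries 3 were closest to their own number. The same-numbered pairs of MI P56 with sham P56 were at 0.135, 0.040 and 0.068. With 2 fitted libraries in sham P1, their deviations mirror each other. This check therefore cannot decide whether a number stands for a shared batch or pairing. With the replicate block the counts were 8 between shams, 9 after MI, 2 for MI at P56, 0 for MI at P1 and 0 for the difference. Counts over all genes moved as well: 446 genes were called for MI at P56 with 13 libraries and 23 with 16. Those called higher for MI at P56 were 307 with 13 libraries, 511 with weights per library and 284 with a pseudocount of 4. They were 270 with edgeR, 241 with the replicate block and 115 with only the groups compared. Those called lower at P56 after MI were 425 with 13 libraries, 341 with the replicate block, 60 with sham P1 library 1 added and 7 with all 16.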

Other observations

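The test of the difference between the responses at P56 and at P1 called 3 of 14 AP-1 targets and 1 of 17 Myc targets higher, beside 0.322% of all genes higher and 0.161% lower, and 0 of either list with all 16 libraries. Among them were the AP-1 targets Tnc, a matrix glycoprotein (log2 difference 4.35 ± 0.47, SE; limma adjusted p = 2.2e-04) and Cd44, the hyaluronan receptor (2.81 ± 0.61, adjusted p = 0.047), and the Myc target Npm1 (1.85 ± 0.32, adjusted p = 0.0159). These 3 were positive, so MI minus sham was larger at P56 than at P1. None of the immediate early genes, feedback regulators, AP-1 subunits, upstream genes, Myc partners or heat shock genes of the lists was called in this test.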
